A study of Mus musculus with 21 samples.

Results

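The genes described are those carried by the mouse mitochondrial genome, taken as the 37 of 34573 rows of the count table whose symbol starts with mt-. They are 13 protein-coding genes, 2 ribosomal RNA (rRNA) genes and 22 transfer RNA (tRNA) genes, found by a symbol rule that uses no measured value. They were measured by bulk RNA sequencing of 21 libraries of bone-marrow-derived macrophages, which are macrophages grown from marrow cells, from C57bl/6 mice aged 12 weeks. The marrow cells had grown for 6 days in L929 medium, which supplies the growth factor M-CSF. All groups shared this strain, age and culture. The unstimulated groups were an untreated control (3 libraries), dimethyl malonate (DMM, 4 libraries) and succinate (4 libraries), the compounds being given for 3 h. Lipopolysaccharide (LPS), a component of bacterial cell walls that activates macrophages, was then given for 4 h or 48 h in 6 further groups. The 4 h groups were LPS 4 h (2 libraries), DMM then LPS 4 h (2 libraries) and succinate then LPS 4 h (1 library), and the 48 h groups were LPS 48 h (2 libraries), DMM then LPS 48 h (2 libraries) and succinate then LPS 48 h (1 library). The labels used here give no doses and do not say if the replicates are separate cultures or mice. The p-values therefore measure sample-to-sample spread alone, and part of that spread may be technical.

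The mitochondrial genome is a small circle that encodes core subunits of respiratory complexes I, III and IV and of the ATP synthase (complex V), together with the rRNAs and tRNAs that the mitochondrion uses to translate them. It is transcribed from both strands as long precursors, and excision of the tRNAs that lie between most genes releases the mRNAs and rRNAs. All other mitochondrial proteins, including every subunit of complex II (succinate dehydrogenase), are encoded in the nucleus. Succinate is the substrate of complex II, and DMM is an ester from which cells free malonate, which competes with succinate for the enzyme. Macrophages activated by LPS are known for a shift away from mitochondrial respiration.

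Of the 37 genes, 15 had enough counts to be tested: 11 protein-coding genes, both rRNAs and 2 tRNAs. The untested protein-coding genes were mt-Nd4l, which had 0 counts in every library, and mt-Nd6, which had 1 to 12 counts per library. Counts at 11 of the 13 protein-coding genes are uncertain in their assignment, because nuclear pseudogenes carry copies of them with at least 90% identity over at least 100 bases. In 3 pairs the copy was identical over at least 99% of the gene, namely mt-Atp6 with Gm10925, mt-Co2 with Gm28661 and mt-Co3 with Gm28437. The mt-Nd4l sequence was identical to that of Gm10222 over 294 of its 297 bases, and both were listed at 0. Such reads can be split or dropped by the counting. Of the 17 copies found, 8 had a row in the count table, the highest being Gm13340, a copy of mt-Co1, with 71 counts over all libraries. Gm10925, Gm28661 and Gm28437 had no row.

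The mt-Nd3 gene, on which several results below turn, lies at chrM:9459-9806 on the plus strand (GENCODE M21 annotation of GRCm38, while the sources used here name no build for the counts). It differs from its nuclear copy Gm28438, on chromosome 1, at a single base within 345 aligned bases, T3C, with positions counted from the first base of mt-Nd3. Its first 40 bases, chrM:9459-9498, and the matching bases of the copy are shown with that base in capitals, since within the aligned bases no other position tells the copies apart.
mt-Nd3: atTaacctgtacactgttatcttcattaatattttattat
Gm28438: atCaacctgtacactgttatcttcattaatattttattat

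The tRNAs gave few counts, 2051 over all 21 libraries, and 7 of the 22 had 0 counts throughout. By position they were not alike: the 8 tRNA genes on the minus strand held 2028 of these counts, and the 14 on the plus strand, which also carries all but 1 of the mRNAs, held 23. The highest were mt-Tq (glutamine) with 1183 counts, mt-Ts1 (serine) with 795 and mt-Ty (tyrosine) with 24. Their genes lie opposite the plus-strand precursor. The mt-Ts1 gene, chrM:6870-6938, overlaps the end of mt-Co1 by 3 bases, and mt-Tq, chrM:3772-3842, overlaps mt-Ti by 3 bases. No source used here says if the counting took strand into account, so these tRNAs and the precursor that runs opposite to them cannot be told apart. The sequences of the 2 tested tRNAs are given on their own strand, with the anticodon in capitals.
mt-Ts1: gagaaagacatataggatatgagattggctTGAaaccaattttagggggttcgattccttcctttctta
mt-Tq: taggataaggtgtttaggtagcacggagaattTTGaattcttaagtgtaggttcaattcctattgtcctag

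Total counts were 662186 to 1546867 per library. The library labelled LPS 48 h replicate 1 went against its label: Fth1 took 2.51% of its counts, against 1.88% to 3.37% in the unstimulated libraries and 5.25% or more in every other LPS library. It is kept apart, so LPS 48 h alone rests on 1 library. All 8 macrophage markers were present in every library. Their summed level was 53938 to 90997 counts per 1e6 scaled counts (CPM) in unstimulated, 85785 to 173737 in LPS 4 h and 78430 to 168369 CPM in LPS 48 h libraries. Most of this sum was Lyz2, at 43313 to 134666 CPM over all 21 libraries. At both times the highest LPS values of Lyz2, Emr1, Itgam, Fcgr1, Cd14 and Csf1r exceeded the highest unstimulated ones. Those of Cd68 and Mertk lay under them. The B cell markers reported here summed to 55.5 to 164 CPM in unstimulated and at most 2.13 CPM in LPS libraries, against 172 CPM in the library kept apart, nearly all of it Ighm, with Cd79a at 0. The 8 neutrophil markers summed to at most 1.58 CPM in unstimulated, 42.6 to 565 CPM in LPS 4 h and 7.72 to 80.6 CPM in LPS 48 h libraries, S100a8 being 0 unstimulated and nearly the whole sum after LPS, with Ly6g and Ltf at 0. The 5 stromal markers summed to 1.74 to 7.06 CPM in unstimulated, 2.57 to 38.2 CPM in LPS 4 h and 4.54 to 17.8 CPM in LPS 48 h libraries. Of these, Dcn reached 35.9 CPM at 4 h and 12.1 CPM at 48 h, against at most 0.694 CPM unstimulated. Each other stromal marker stayed at or below 8.68 CPM in every library. T and NK cell, dendritic, erythroid and mast cell markers summed to at most 12.7 CPM in any of the other 20 libraries. Ribosomal protein genes took 1.98% to 3.82% of counts in unstimulated and 0.575% to 1.74% in LPS libraries. The part of these shifts in the results below was not tested.

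Levels differed widely between the genes, although most come from the same precursor. Per kilobase of gene and in the unstimulated libraries, mt-Rnr2, the rRNA of the large mitochondrial ribosomal subunit, stood far above the rest at a median of 15441 CPM per kilobase. The small-subunit rRNA, mt-Rnr1, had a median of 214, so that the raw counts of mt-Rnr2 were 85.9 to 181 times those of mt-Rnr1 in these libraries. Among the mRNAs the order of medians was mt-Co3 (2594 CPM per kilobase), mt-Atp6 (1227), mt-Co1 (1174), mt-Nd1 (539), mt-Co2 (321), mt-Atp8 (241), mt-Nd3 (151), mt-Cytb (107), mt-Nd4 (65.5), mt-Nd5 (54.6), mt-Nd2 (34.7) and mt-Nd6 (10.7). Most neighbours in this order overlapped in their ranges and did not differ beyond their spread, for example mt-Atp6 (1105 to 1967) and mt-Co1 (768 to 1498). The ranges were apart for 3 pairs of neighbours: mt-Co3 (from 2024) above mt-Atp6, mt-Co1 above mt-Nd1 (up to 664), and mt-Nd2 (from 23.5) above mt-Nd6 (up to 21.01). The mt-Nd6 mRNA, the lowest of those detected, is the only one encoded on the minus strand. Library preparation by full-length cDNA and the nuclear copies both enter these levels.

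Mitochondrial transcripts took a smaller share of all counts after LPS for 4 h. The 13 protein-coding genes together made up 0.670% ± 0.098 (SD, n = 11) of counts in unstimulated libraries, with a lowest value of 0.532%, a median of 0.686% and a highest of 0.795%. In LPS 4 h libraries they made up 0.322% and 0.434%, in DMM then LPS 4 h 0.294% and 0.221%, and in succinate then LPS 4 h 0.504%. Every LPS 4 h library lay below every unstimulated library in this share, and the mean of the 5 was 0.530 times the unstimulated mean. The rRNA share moved the same way, from 2.80% ± 0.327 (SD, n = 11; 2.30% to 3.29%) to 1.08% and 1.52% with LPS 4 h, 0.980% and 0.960% with DMM then LPS 4 h and 1.44% with succinate then LPS 4 h, again with no overlap. These gaps hold for shares of unscaled totals. On the TMM-scaled CPM scale (scaling by the trimmed mean of M values), the mRNA sums of LPS 4 h replicate 2 (6018 CPM) and succinate then LPS 4 h (6762 CPM) and the rRNA sum of LPS 4 h replicate 2 (21160 CPM) lay within the unstimulated ranges (4847 to 7594 CPM and 19549 to 31453 CPM). The log2 ratios of means were then -0.45 for mRNAs and -0.76 for rRNAs. In bulk samples, fewer cells of a type and less RNA per cell cannot be told apart. These shares have no p-value, since they are sums over a set of genes that was picked for study with earlier results known. The unstimulated rRNA shares split by library number, at 2.30% to 2.71% in those numbered 1 or 3 and 2.93% to 3.29% in those numbered 2 or 4. Within each treatment the mRNA share was also higher in those numbered 2 or 4. What lies behind this split was not tested. Against the unstimulated libraries numbered 1 and 3 alone, the log2 ratio of mean shares was -0.76 for mRNAs and -1.09 for rRNAs, compared with -0.92 and -1.22 against all 11.

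**Figure D1:**
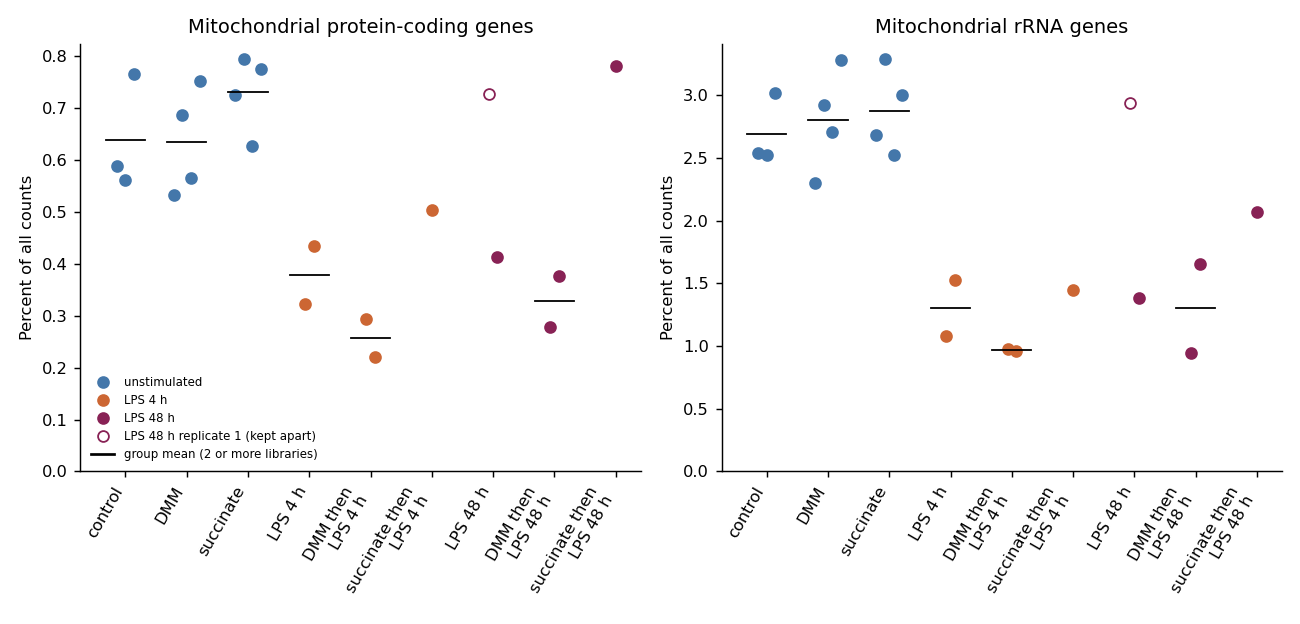
Share of all counts taken by the mitochondrial protein-coding genes (left) and rRNA genes (right), in percent on a linear axis, with 1 point per library, groups along the x axis and black lines for means of groups with 2 or more libraries. The LPS 4 h libraries (0.221% to 0.504% for protein-coding genes) lie below all unstimulated ones (0.532% to 0.795%), and the open point, LPS 48 h replicate 1, lies among the unstimulated libraries.

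Gene by gene, 11 of the 15 tested members fell and 0 rose in all LPS 4 h groups against all unstimulated groups, by edgeR's quasi-likelihood test with Benjamini-Hochberg adjustment over 6812 genes (adjusted p under 0.05). The group means on each side are averaged with equal weight. Succinate then LPS 4 h, a single library, thus weighs as much as either other LPS 4 h group, and a call need not mean a fall in each group. In the same comparison 24.5% of all tested genes fell and 20.6% rose. The median log2 fold change was -0.76 over the 15 members and -0.10 over all genes. Scaling by total counts, without TMM, moved the median of all genes to -0.55. Relative to the median of all genes, the members' median was -0.66 with TMM and -0.65 with total counts.

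Complex I, which passes electrons from NADH to ubiquinone, had 5 tested mitochondrial subunits, and all 5 fell at 4 h. The largest estimate was that of mt-Nd3, at -1.35 ± 0.26 (SE) on the log2 scale (adjusted p = 0.000124). The unstimulated libraries had 24.6 to 74.6 CPM of mt-Nd3 (median 52.7 CPM), against 5.33 and 22.6 CPM with LPS, 7.30 and 7.42 CPM with DMM then LPS and 68.2 CPM with succinate then LPS. Thus 4 of the 5 LPS 4 h libraries lay below every unstimulated one, and the succinate library lay within their range. The fold changes of the other subunits lay between -0.82 ± 0.22 for mt-Nd1 and -0.76 ± 0.20 for mt-Nd5. For mt-Nd1 and mt-Nd5 only the DMM then LPS 4 h libraries lay below the unstimulated ranges (295 to 636 CPM and 60.4 to 157 CPM). The LPS 4 h and succinate then LPS 4 h libraries lay within these ranges.

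The mt-Nd4 mRNA, at -0.77 ± 0.19 (adjusted p = 0.00119), was the only tested member with every LPS 4 h library below every unstimulated library on the CPM scale, a pattern shown by 7.96% of all tested genes. Its levels were 72.2 to 150 CPM (median 90.2 CPM) in unstimulated libraries. They were 39.4 and 72.0 CPM with LPS 4 h, 68.0 and 40.8 CPM with DMM then LPS 4 h and 50.2 CPM with succinate then LPS 4 h. The highest LPS value lay just under the lowest unstimulated one.

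Cytochrome b (mt-Cytb), the only mitochondrially encoded subunit of complex III, fell by 1.13 ± 0.20 on the log2 scale at 4 h (adjusted p = 1.88e-05). Its levels were 76.4 to 176 CPM (median 123 CPM) unstimulated, 44.8 and 69.9 CPM with LPS 4 h, 39.9 and 26.9 CPM with DMM then LPS 4 h and 83.6 CPM with succinate then LPS 4 h. The succinate library alone overlapped the unstimulated range. As a part of the mitochondrial protein-coding counts, mt-Cytb was 1.58% to 2.33% in unstimulated libraries, 1.07% to 1.56% in all LPS 4 h libraries and 0.496% to 1.52% in all LPS 48 h libraries, with no overlap at either time.

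The 3 core subunits of cytochrome c oxidase (complex IV) differed. The subunit mRNA mt-Co2 fell at 4 h (-0.75 ± 0.22, adjusted p = 0.00495), while mt-Co1 (-0.22 ± 0.23, adjusted p = 0.475) and mt-Co3 (-0.35 ± 0.23, adjusted p = 0.221) were not called. The 95% intervals of the latter, -0.69 to 0.26 and -0.82 to 0.12, include both no difference and a sizeable fall. With total counts in place of TMM, both were called lower. The level of mt-Co1 was 1186 to 2315 CPM unstimulated, 1513 and 2637 CPM with LPS 4 h, 1021 and 807 CPM with DMM then LPS 4 h and 1943 CPM with succinate then LPS 4 h. Thus only the DMM libraries lay below the unstimulated range. Both mitochondrial subunits of the ATP synthase membrane part fell at 4 h, mt-Atp6 by 0.67 ± 0.21 and mt-Atp8 by 0.83 ± 0.23 on the log2 scale.

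Both rRNAs fell at 4 h, mt-Rnr1 by 1.15 ± 0.24 (adjusted p = 0.000194) and mt-Rnr2 by 0.75 ± 0.26 (adjusted p = 0.0205) on the log2 scale. The level of mt-Rnr1 was 108 to 307 CPM unstimulated, 112 and 139 CPM with LPS 4 h, 41.0 and 43.6 CPM with DMM then LPS 4 h and 127 CPM with succinate then LPS 4 h. The DMM libraries lay below the unstimulated range, and the other 3 lay within its lower part. With only the unstimulated libraries numbered 1 and 3, 9 members fell, the calls of mt-Rnr2 and mt-Atp6 being lost (adjusted p = 0.073 and 0.0734). Leaving out LPS 4 h replicate 1 or DMM then LPS 4 h replicate 1 also ended the call of mt-Rnr2.

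**Figure D2:**
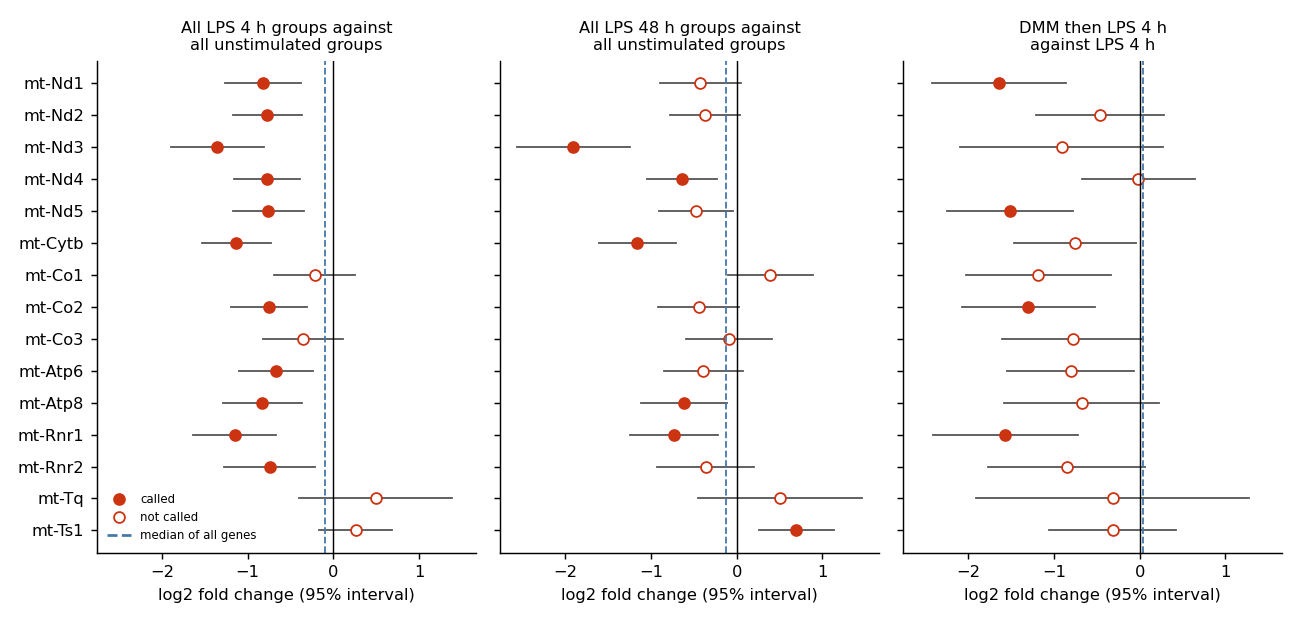
Log2 fold change (point) and 95% interval (line) of the 15 tested members in 3 comparisons, with filled points for members called at an adjusted p under 0.05, a solid line at 0 and a dashed line at the median of all genes. At 4 h 11 members are called lower, at 48 h 5 lower and 1 higher, and DMM then LPS 4 h against LPS 4 h has 4 called lower.

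LPS 4 h alone against the untreated control, with 2 and 3 libraries, gave 3 members that fell and 0 that rose, where 12.5% of all genes fell. These were mt-Nd3 (-1.94 ± 0.44, adjusted p = 0.00137), mt-Nd2 (-1.01 ± 0.31, adjusted p = 0.0150) and mt-Cytb (-0.82 ± 0.31, adjusted p = 0.0493). The controls had 43.8, 42.2 and 74.6 CPM of mt-Nd3 and the LPS libraries 5.33 and 22.6 CPM, resting on 5 and 21 counts. The mt-Cytb call was lost with DESeq2 (adjusted p = 0.0794), without the filter, with all 21 libraries, against the unstimulated libraries numbered 1 and 3 and in 11 of 20 fits that left out a library. No member was called without LPS 4 h replicate 1, and 1 was called without control replicate 4. Without DMM then LPS 48 h replicate 2, a library outside the comparison, 6 were called.

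After 48 h of LPS fewer members were called than at 4 h, but the difference between the times was not shown. The protein-coding share was 0.413% with LPS 48 h (1 library), 0.279% and 0.377% with DMM then LPS 48 h and 0.782% with succinate then LPS 48 h. The succinate library lay near the top of the unstimulated range and the other 3 below it. The rRNA share was 1.39%, 0.947%, 1.65% and 2.07% in the same order, each below the lowest unstimulated value of 2.30%. With TMM scaling, the rRNA sums of DMM then LPS 48 h replicate 2 (23231 CPM) and succinate then LPS 48 h (27491 CPM) lay within the unstimulated range, and the log2 ratios of means were -0.41 for rRNAs and -0.054 for mRNAs. Against the unstimulated libraries numbered 2 and 4 alone, the log2 ratio of mean shares was -0.71 for mRNAs and -1.04 for rRNAs, compared with -0.53 and -0.89 against all 11.

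In all LPS 48 h groups against all unstimulated groups, 5 members fell, where 23.4% of all genes fell, and 1 rose, where 20.6% rose. The members that fell were mt-Nd3 (-1.90 ± 0.32, adjusted p = 2.18e-05), mt-Cytb (-1.16 ± 0.22, adjusted p = 5.91e-05), mt-Rnr1 (-0.73 ± 0.25), mt-Nd4 (-0.64 ± 0.20) and mt-Atp8 (-0.61 ± 0.24). The mt-Cytb level was 41.5 CPM with LPS 48 h, 21.05 and 26.3 CPM with DMM then LPS 48 h and 158 CPM with succinate then LPS 48 h, so the succinate library lay within the unstimulated range and the rest below it. The mt-Atp8 call was lost with DESeq2 (adjusted p = 0.0864), without the filter, with all 21 libraries and in 8 of 18 fits that left out a library, and that of mt-Rnr1 without DMM then LPS 48 h replicate 1. Without DMM then LPS 48 h replicate 2 the count of calls was 11, and with total counts 12 members fell and 0 rose, the median of all genes then being -0.56. Against the unstimulated libraries numbered 2 and 4 alone, 7 members fell and 0 rose. With the library labelled LPS 48 h replicate 1 returned to its group, 4 members were called. In all LPS 48 h groups against all LPS 4 h groups, 0 of 15 members were called by edgeR or by DESeq2 and 1 had an unadjusted p under 0.05, where 1.23% of all genes were called.

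LPS 48 h alone against control, with 1 library against 3, had 3 members that fell, where 8.29% of all genes fell: mt-Nd3 (-2.46 ± 0.61), mt-Cytb (-1.28 ± 0.42) and mt-Nd4 (-1.20 ± 0.41). The mt-Nd4 call was lost with DESeq2 (adjusted p = 0.0586), without the filter, against the unstimulated libraries numbered 2 and 4 and without control replicate 1 or 3, and that of mt-Cytb without the filter or control replicate 4. With the library labelled LPS 48 h replicate 1 returned to its group, 1 member was called. That library had 21.2 CPM of mt-Nd3, under the lowest unstimulated value, while the other LPS 48 h library had 9.65 CPM.

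Among the mRNAs, mt-Co1 made up more of the mitochondrial protein-coding counts at 48 h. It was 23.0% to 34.2% of them in unstimulated libraries and 37.8% with LPS 48 h, 46.2% and 49.5% with DMM then LPS 48 h and 35.4% with succinate then LPS 48 h, with no overlap. At 4 h it was 28.7% to 43.8%, overlapping the unstimulated range. The fold change of mt-Co1 itself was 0.39 ± 0.24 at 48 h (adjusted p = 0.199) and turned to -0.087 with total counts. Without DMM then LPS 48 h replicate 1 it was called higher (0.62, adjusted p = 0.00962). These proportions are descriptions without a test.

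**Figure D3:**
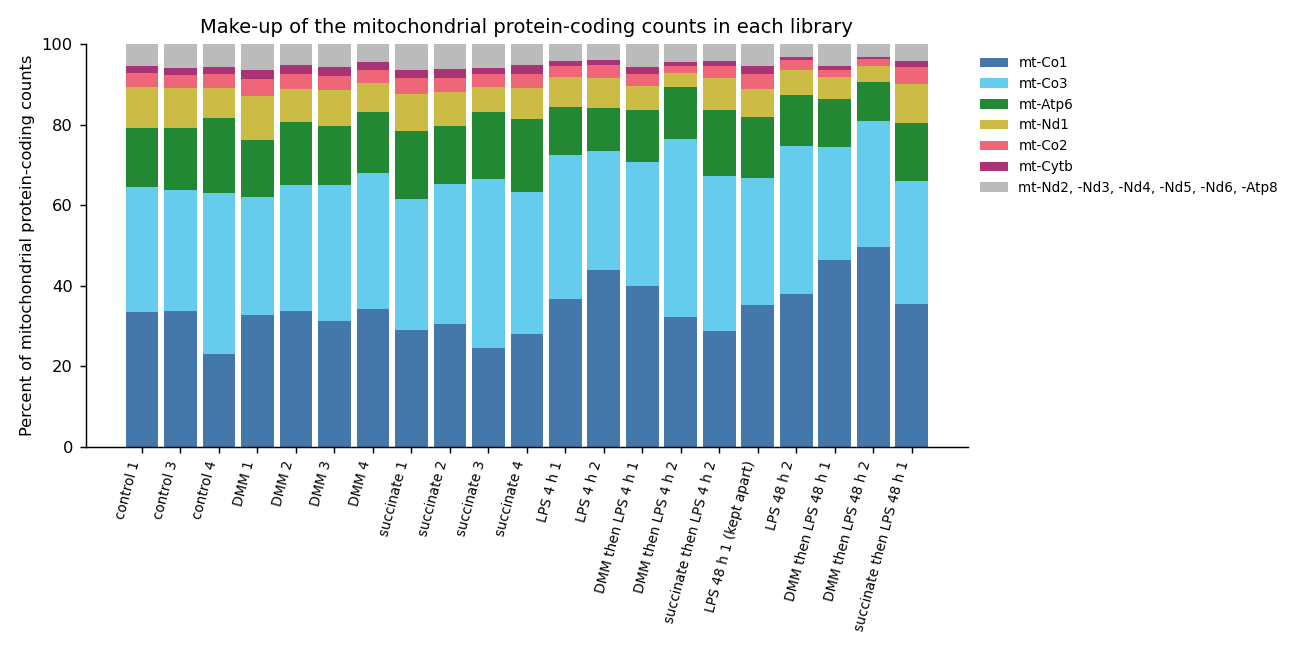
Make-up of the mitochondrial protein-coding counts in each library, as stacked bars in percent with 1 bar per library and 1 colour per gene. The mt-Co1 part is 23.0% to 34.2% in unstimulated libraries and 35.4% to 49.5% in the LPS 48 h libraries other than the one kept apart.

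Succinate before LPS went with high mt-Nd3. In succinate then LPS 4 h against LPS 4 h, 1 member rose, mt-Nd3 (2.28 ± 0.54, adjusted p = 0.0329), where 0.528% of all genes rose. The succinate library had 53 counts of mt-Nd3 and the LPS 4 h libraries 5 and 21. This comparison has 1 succinate library, assumed to vary like the other groups. The call was lost without LPS 4 h replicate 1 (1.59, adjusted p = 0.438), without either DMM then LPS 4 h library and with all 21 libraries. At 48 h the succinate library had 57 counts of mt-Nd3 (64.7 CPM) and the LPS 48 h library 10 (9.65 CPM), a log2 fold change of 2.73 ± 0.69 that did not pass the threshold (adjusted p = 0.0739).

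In succinate then LPS 48 h against LPS 48 h, with 1 library on each side, 0 of 15 members were called by edgeR, 9 had an unadjusted p under 0.05 and DESeq2 called 1, where edgeR called 0.558% of all genes. All 15 estimates were above 0, with a median of 1.05 over the members and 0.01 over all genes. They come from the same pair of libraries, so their shared sign is not 15 separate results. Relative to mt-Co3, which lies just before it on the genome with only mt-Tg between them, mt-Nd3 counts were 1.49% to 3.21% in unstimulated libraries. They were 2.63% and 2.03% in the succinate then LPS libraries (4 h and 48 h) and 0.128% to 1.27% in the other 7 LPS libraries, leaving out the one kept apart at 1.18%. Both succinate then LPS libraries thus lay within the unstimulated range and all other LPS libraries below it. This ratio uses the same mt-Nd3 counts as the comparisons above, so it adds no separate support, and it was not tested.

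**Figure D4:**
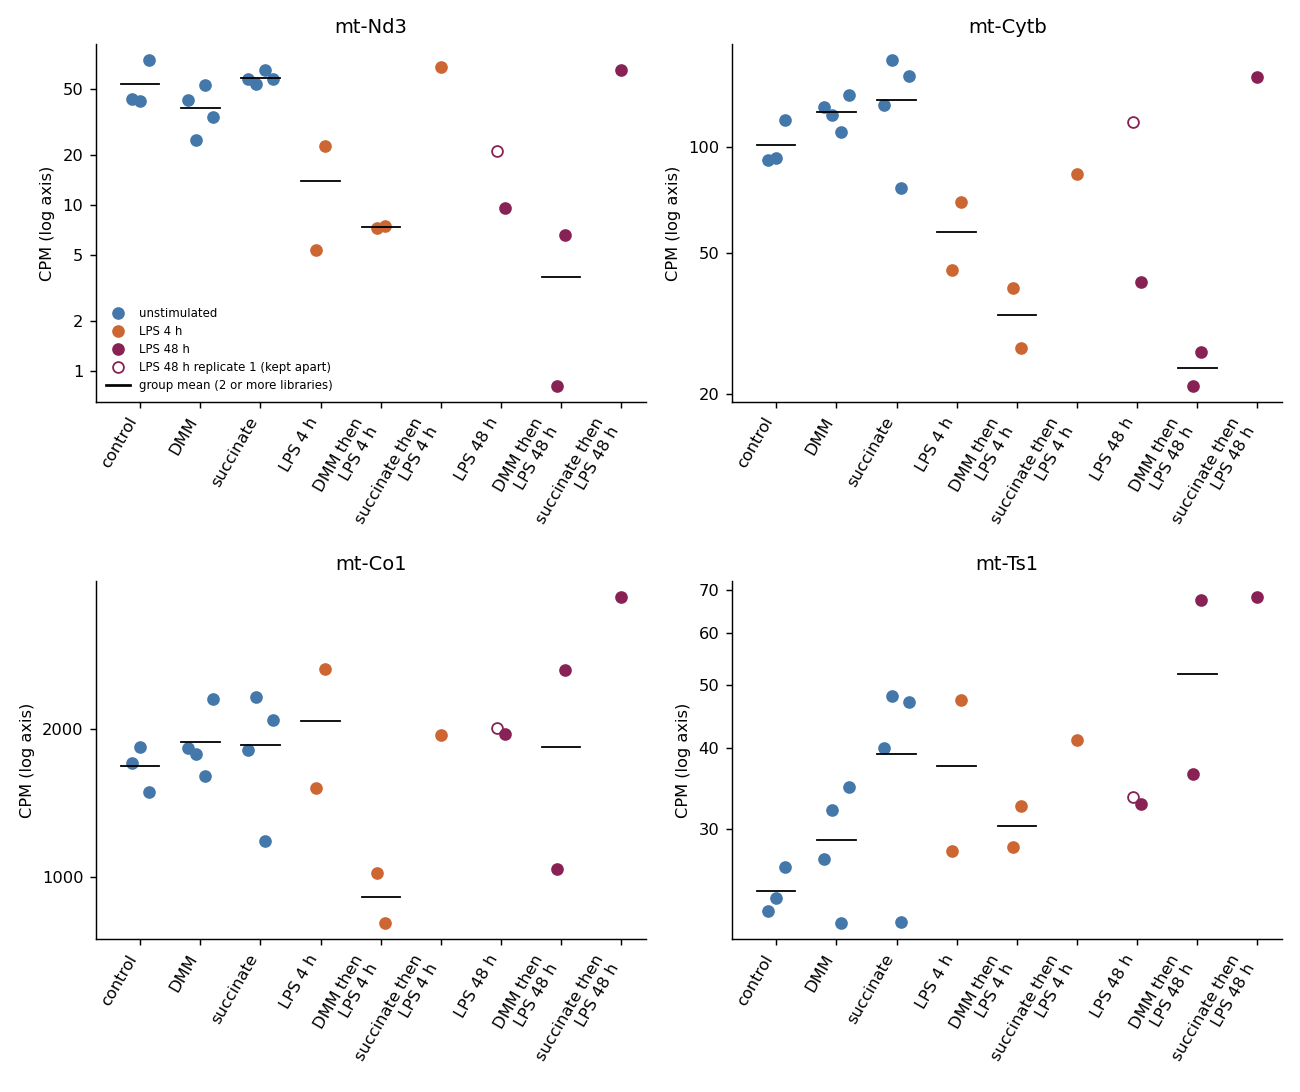
CPM of mt-Nd3, mt-Cytb, mt-Co1 and mt-Ts1 on log axes, with 1 point per library by group and black lines for means of groups with 2 or more libraries. For mt-Nd3 the succinate then LPS libraries (68.2 and 64.7 CPM) lie within the unstimulated range of 24.6 to 74.6 CPM and the other LPS libraries lie below it.

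DMM before LPS went with lower mitochondrial transcripts at 4 h. In DMM then LPS 4 h against LPS 4 h, with 2 libraries each, 4 of 15 members fell and 0 rose, where 10.5% of all genes fell and 3.54% rose. They were mt-Nd1 (-1.64 ± 0.38, adjusted p = 0.00361), mt-Nd5 (-1.52 ± 0.36, adjusted p = 0.00395), mt-Rnr1 (-1.57 ± 0.41, adjusted p = 0.0100) and mt-Co2 (-1.30 ± 0.38, adjusted p = 0.0190). All 15 estimates were below 0, with a median of -0.81 over the members and 0.04 over all genes. These estimates come from the same libraries, so their shared sign is not 15 separate results. The level of mt-Nd1 was 306 and 442 CPM with LPS 4 h and 151 and 88.2 CPM with DMM then LPS 4 h. That of mt-Nd5 was 81.0 and 105 CPM against 36.5 and 27.8 CPM. For both genes the DMM libraries lay below the LPS libraries. That order comes from the same values as the calls and adds no support to them.

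These calls rest on few libraries: 0 members were called without LPS 4 h replicate 2 or without DMM then LPS 4 h replicate 2. The mt-Co2 call was also lost with total counts (-0.79, adjusted p = 0.0919) and with all 21 libraries (adjusted p = 0.0632). With total counts the calls of mt-Nd1 (-1.13), mt-Nd5 (-1.04) and mt-Rnr1 (-1.11) stayed, at smaller estimates than with TMM. The DMM then LPS 4 h libraries also had a lower ribosomal protein share (0.575% and 0.621%, against 1.64% and 1.74% with LPS 4 h) and a higher Fth1 share (10.6% or more in both, against 5.25% and 5.61%). Their neutrophil markers summed to 199 and 320 CPM, against 42.6 and 68.8 CPM, and their stromal markers to 38.2 and 34.3 CPM, against 15.99 and 6.45 CPM. In each of these lists the 1 tested marker rose, S100a8 and Dcn respectively, and 3 of 8 macrophage markers fell. The part of these shifts in the fall of the mitochondrial transcripts was not tested. The effect of DMM with LPS 4 h, less its effect without LPS, was called lower for 2 of 15 members, mt-Nd1 and mt-Nd5, where 4.49% of all genes had a lower interaction. At 48 h, DMM then LPS against LPS, with 2 libraries and 1, called 0 of 15 members by edgeR or DESeq2, with 3 at an unadjusted p under 0.05, where 0.807% of all genes were called. Without DMM then LPS 48 h replicate 2, 2 members were called.

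Without LPS, neither compound gave a called member. In DMM against control, 0 of 15 were called by edgeR or DESeq2 and 0 had an unadjusted p under 0.05, where 0.558% of all genes were called. In succinate against control, 0 of 15 were called by either tool and 1 had an unadjusted p under 0.05 (mt-Ts1, 0.68 ± 0.29), where edgeR called 0% and DESeq2 called 2 of all genes. In DMM against succinate, 0 of 15 were called by either tool and 2 had an unadjusted p under 0.05, where 0.220% of all genes were called. The protein-coding share was 0.638% ± 0.111 (SD, n = 3) in controls, 0.634% ± 0.103 (SD, n = 4) with DMM and 0.731% ± 0.0754 (SD, n = 4) with succinate, and the groups overlapped. The controls were numbered 1, 3 and 4 and the other groups 1 to 4, while libraries numbered 2 or 4 had the higher shares. Group means are thus partly mixed with library number. Without control replicate 4 the log2 ratio of succinate to control moved from 0.20 to 0.35. For mt-Nd3 the 95% interval of the log2 fold change was -1.15 to 0.14 with DMM and -0.49 to 0.74 with succinate, so changes of those sizes are not excluded by the test.

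Neither of the 2 tested tRNAs was called lower after LPS. In all LPS 4 h groups, mt-Tq (0.49 ± 0.41) and mt-Ts1 (0.26 ± 0.21) were not called, and mt-Ts1 turned to -0.19 with total counts and was called higher with the replicate number as a block (0.52, adjusted p = 0.0451). At 48 h mt-Ts1 rose (0.70 ± 0.22, adjusted p = 0.00924). Its levels were 21.5 to 48.0 CPM unstimulated, 32.8 CPM with LPS 48 h, 36.4 and 67.6 CPM with DMM then LPS 48 h and 68.1 CPM with succinate then LPS 48 h. The first pair lay within the unstimulated range and the last above it. The call was lost with total counts (0.23, adjusted p = 0.413), with the replicate block (0.48, adjusted p = 0.074) and against the unstimulated libraries numbered 2 and 4 (0.49, adjusted p = 0.0826).

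Against the mt-Co1 counts next to it, mt-Ts1 was 1.27% to 2.26% in unstimulated libraries, 1.83% and 1.79% with LPS 4 h, 2.12% with succinate then LPS 4 h, 1.68% with LPS 48 h and 1.85% with succinate then LPS 48 h. It was 2.75% and 4.02% with DMM then LPS 4 h and 3.50% and 2.58% with DMM then LPS 48 h. The 4 libraries with DMM and LPS were thus the highest of the 21. In counts, mt-Ts1 was 50, 35, 45 and 72 in those 4 libraries. The order is a description of a chosen pair of genes, without a test. It also depends on mt-Co1, which in both DMM then LPS 4 h libraries lay below the unstimulated range.

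Nuclear genes for the respiratory complexes moved in either direction after LPS. The lists of nuclear genes were chosen with earlier results of these data known. Of 74 tested subunits of complexes I to V encoded in the nucleus, 12 rose and 10 fell in all LPS 4 h groups, and 20 rose and 4 fell in all LPS 48 h groups. The shares of all tested genes were 20.6% higher and 24.5% lower at 4 h, and 20.6% higher and 23.4% lower at 48 h. Their list medians lay between -0.08 and 0.06 at 4 h and between 0.18 and 0.34 at 48 h. The mitochondrial protein-coding counts were also set against the summed counts of all listed nuclear subunits of complexes I, III, IV and V. Complex II was left out of this sum, and untested subunits were kept in. The ratio was 0.831 to 1.46 in unstimulated libraries, 0.625 to 0.955 at 4 h and 0.746 to 1.40 at 48 h, with overlap at both times. In DMM then LPS 4 h against LPS 4 h, 26 of the 74 fell and 0 rose, where 10.5% of all genes fell, among them 9 of 11 complex IV and 11 of 16 complex V subunits but 3 of 34 of complex I.

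Single nuclear subunits moved in either direction at 4 h. In complex I, Ndufs8, an iron-sulphur subunit, fell by 1.59 ± 0.22 on the log2 scale and Ndufb11 by 1.34 ± 0.30, while Ndufb9 rose (0.58 ± 0.18). In complex II, Sdha, the subunit that binds succinate, fell by 0.40 ± 0.16 (adjusted p = 0.0381). In complex III, Cyc1 (0.63 ± 0.19) and Uqcrq (0.56 ± 0.18) rose and Uqcrh fell by 0.82 ± 0.29. In complex IV, Cox7b (0.70 ± 0.20) and Cox7a2 (0.73 ± 0.23) rose, and Cox4i1 fell by 0.75 ± 0.24. In complex V, Usmg5 (0.86 ± 0.22) and Atp5d (0.48 ± 0.15) rose, and Atp5g2 fell. Atp5g2 was near the detection limit, at 3.17 to 15.3 CPM unstimulated and 0.562 to 6.45 CPM with LPS 4 h, so no fold is given.

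Genes that maintain, transcribe and process mitochondrial nucleic acids also moved in either direction, and their counts at 4 h read against the same 20.6% higher and 24.5% lower of all genes. Of 10 tested genes for transcription and maintenance of mitochondrial DNA, 0 rose and 2 fell at 4 h. These were Mpv17, an inner membrane protein needed to keep mitochondrial DNA (-1.44 ± 0.19; 41.6 to 71.6 CPM unstimulated and 15.7 to 28.3 CPM with LPS 4 h), and Tfam, the transcription factor that packages the genome. Tfam was near the detection limit, at 3.17 to 7.64 CPM unstimulated and 0 to 8.43 CPM with LPS 4 h, so no fold is given. Of 23 tested genes for RNA processing and turnover, 5 rose and 1 fell. Rexo2, a mitochondrial exonuclease for short RNAs, rose (0.98 ± 0.16, from a median of 27.8 CPM to 64.3 CPM), as did Fastk (1.16 ± 0.26). Lrpprc, which stabilises mitochondrial mRNAs, fell by 0.78 ± 0.28 (from a median of 22.9 CPM to 13.9 CPM).

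Of 58 tested mitochondrial ribosomal proteins, 6 rose and 2 fell at 4 h, where 20.6% of all genes rose and 24.5% fell. The called genes with the smallest p were Mrpl52 (0 to 3.27 CPM unstimulated, 15.2 to 34.7 CPM with LPS 4 h), Mrpl45 (1.20 ± 0.17) and Mrps18b (2.06 ± 0.43). Of 9 translation factors and tRNA synthetases, 0 rose and 1 fell, the factor Gfm2, by 0.77 ± 0.20. Of 4 biogenesis regulators, 0 were called at 4 h. In DMM then LPS 4 h against LPS 4 h, Rexo2 fell by 1.30 ± 0.27.

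**Figure D5:**
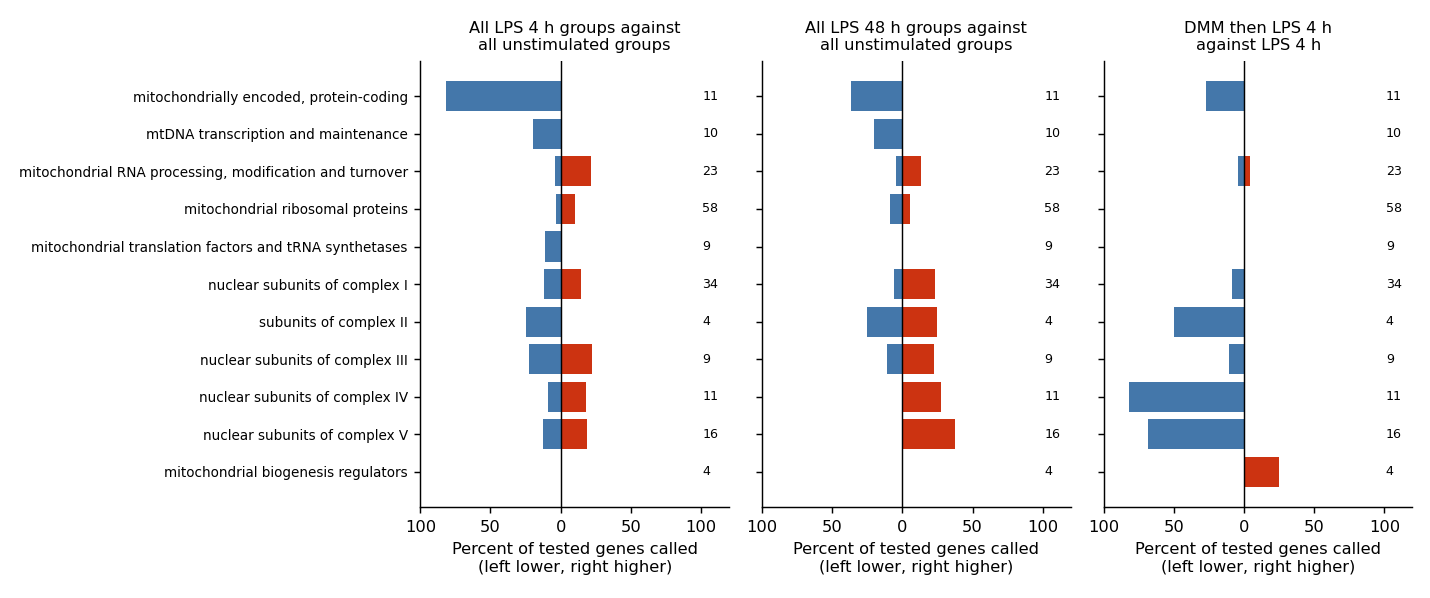
Percent of the tested genes of each list called lower (blue, left) or higher (red, right) in 3 comparisons, with the number tested at the right of each row. The mitochondrially encoded protein-coding genes have 9 of 11 called lower at 4 h and 4 of 11 at 48 h, against 24.5% and 23.4% of all genes. The nuclear lists hold calls in either direction.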

How the data were processed

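The authors deposited 1 table of raw read counts, with 34573 gene symbols as rows and 21 libraries as columns. The submitters' processing notes name TopHat2, Bowtie, HTSeq and edgeR. The sources used here state neither their versions and settings nor the strand mode, build or annotation. Libraries were full-length cDNA amplified by a SmartSeq2-type method, per the labels' protocols. No molecular identifiers are named, so amplified reads are not independent molecules.

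The members follow from a symbol rule that uses no value, but they were picked for study, and the gene lists chosen, with earlier results of these data known. Stimulated columns name their hours, and unstimulated columns carry only numbers, so the unstimulated libraries were pooled over both time sets. Reading odd numbers as the 4 h set and even numbers as the 48 h set is an inference, used only in alternatives. The library labelled LPS 48 h replicate 1 was left out of the fit.

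The remaining 20 libraries in 9 groups were fitted with edgeR 4.0.16 (R 4.3.3, limma 3.58.1), using robust quasi-likelihood tests, TMM scaling and Benjamini-Hochberg (BH) adjustment over the 6812 genes with a total of at least 15 counts that, in 2 or more libraries, reached the CPM worth 10 counts at median depth. The threshold was an adjusted p of 0.05; the residual degrees of freedom were 11, and the common biological coefficient of variation was 0.230. Every adjusted p in the text is from this test unless DESeq2 is named. A group with 1 library takes its spread from the other groups. Comparisons of all groups average the 3 group means on each side with equal weight. The ± of a log2 fold change is its standard error, and that of a share is an SD. CPM are counts per TMM-scaled library size; shares are percent of all counts. Permutation tests of shares had been planned and are not given, because the shares are sums over chosen genes. Named genes were all members with a value, the 3 highest tRNAs, and up to 3 called genes per nuclear list with the smallest p at 4 h. Nuclear copies were sought with blastn 2.17.0 among GENCODE M21 transcripts. This search replaced a planned list of such copies by name, which was dropped after the files had been seen. For control and succinate the 3 same-numbered pairs deviated together (correlations 0.118 to 0.265), a pairing read from the data and not the labels. Scripts were tested on simulated data. The alternatives were DESeq2 1.42.0, median-of-ratios scaling, no filter, all 21 libraries, 12 groups, a replicate block, leaving out each library and other denominators of shares; total counts and subsets of the unstimulated libraries were added after seeing the data.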

Additional observations from a re-analysis of the deposited data

Results flagged for a closer look

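The effect of DMM differed between cells with and without LPS for 2 members, by the interaction term of the same edgeR fit. The DMM effect with LPS 4 h minus the DMM effect without LPS was -1.58 ± 0.47 for mt-Nd1 (adjusted p = 0.0448) and -1.61 ± 0.44 for mt-Nd5 (adjusted p = 0.0254) on the log2 scale, where 4.49% of all genes had a lower interaction called. Without LPS the DMM effect on mt-Nd1 was -0.06 ± 0.28 and on mt-Nd5 0.10 ± 0.26. Both genes were lower in 2 of 2 DMM then LPS 4 h libraries than in either LPS 4 h library, an order given by the same values as the calls. In levels, mt-Nd1 was 516, 551 and 487 CPM in controls and 614, 424, 465 and 484 CPM with DMM alone, so those groups overlapped. Leaving out single libraries gave 0 to 4 called members: 0 without control replicate 1, without either LPS 4 h library or without either DMM then LPS 4 h library, 1 without control replicate 3 or 4, DMM replicate 1, 3 or 4 or succinate replicate 1, and 4 without either DMM then LPS 48 h library. In the DMM and the succinate group, each of 4 libraries, 34 sets of 4 values (a gene or a share in 1 group) were checked for a library far from the others, and 0 were found, where chance gives about 1 in 20.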

How the results depend on the processing

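The comparison of all LPS 4 h groups with all unstimulated groups held 11 called members under DESeq2, median-of-ratios scaling, no filter, all 21 libraries and 12 groups, 12 with the replicate block (the added call being a rise of mt-Ts1), 13 with total counts, and 10 to 11 without single libraries. With total counts, 12 were called at 48 h, 11 in LPS 4 h against control, 10 in LPS 48 h against control and 0 in the DMM interaction; mt-Ts1 at 4 h turned to -0.19 and mt-Co1 at 48 h to -0.087. LPS 4 h against control had 1 without the filter and 5 with 12 groups. LPS 48 h against control had 1 without the filter and 1 with all 21 libraries. With all 21 libraries 0 were called in succinate then LPS 4 h against LPS 4 h and 0 in the DMM interaction. Succinate then LPS 48 h against LPS 48 h had 1 with DESeq2, 3 without the filter, 3 with 12 groups and 4 with the replicate block.

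Leaving out single libraries gave 0 to 4 calls for the DMM interaction, 0 to 6 for DMM then LPS 4 h, 0 to 2 for DMM then LPS 48 h, 0 to 6 for LPS 4 h against control, 5 to 11 for all LPS 48 h groups, 0 to 1 for succinate then LPS 4 h and 0 to 2 for succinate then LPS 48 h (1 without control replicate 4, DMM replicate 2, succinate replicate 3 or either LPS 4 h library, 2 without either DMM then LPS 48 h library). The uncalled 48 h estimates of mt-Co3 (-0.34 to 0.15) and mt-Tq (-0.031 to 0.82) changed sign. The log2 ratio of mean shares at 48 h was -0.91 to -0.36 for mRNAs, lowest without succinate then LPS 48 h replicate 1. With TMM-scaled sizes as denominator, the ratios were -0.45 and -0.054 for mRNAs and -0.76 and -0.41 for rRNAs (4 h and 48 h). Other denominators moved them by less than the spread between libraries. The cause of these changes was not tested.

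Across all groups the numbers were not taken to pair the libraries: correlations of same-numbered deviations from group means ran from -0.03 to 0.26, and not every library correlated best with its own number. In control and succinate all 3 were above 0.1 and each control correlated best with its own number; the replicate block called 0 members there. Beyond the counts above, the replicate block gave 8 calls at 48 h, 5 for DMM then LPS 4 h, 4 for LPS 48 h against control and 3 for the DMM interaction. At 1 to 94 counts per library, mt-Nd3 carries the widest intervals of the mRNAs.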
